A study of Mus musculus with 3 samples.

Results

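The 36 genes described here carry MHC class I antigen presentation and the cellular response to interferon. They are the rows of 36 listed symbols, and all 36 are present in each of the 4 deposited count tables, which list 19981, 19981, 18253 and 17907 genes. By role, 4 members code for interferon receptor chains (Ifngr1, Ifngr2, Ifnar1, Ifnar2) and 6 for transcription factors of the response (Stat2, Irf1, Irf7, Irf8, Irf9, Nlrc5). Another 3 form the class I molecule (H2-K1, H2-D1, B2m), 3 load it with peptide (Tap1, Tap2, Tapbp) and 5 belong to the immunoproteasome (Psmb8, Psmb9, Psmb10, Psme1, Psme2). A further 9 are antiviral effectors (Isg15, Ifit1, Ifit2, Ifit3, Ifi35, Ifih1, Ifitm2, Ifitm3, Bst2) and 6 are interferon-inducible GTPases (Gbp2, Gbp3, Gbp7, Igtp, Irgm1, Iigp1).

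The study profiled single cells of adult mouse sciatic nerve by Drop-seq, which captures cells in droplets, tags their transcripts by cell and counts them by unique molecular identifiers (UMIs). The 3 libraries are 1 per group: injured nerve of Wildtype CD1 mice passed through myelin removal beads, injured nerve of CD1 and C57BL/6 mice sorted by FACS, and uninjured nerve of Wildtype CD1 mice passed through the beads. All nerves were digested with collagenase and trypsin. Both injured libraries come from the distal nerve segment 9 days after resection, and of the uninjured nerve only cells that the authors predicted to be mesenchymal were analysed here. The sources used here give neither the number of mice pooled nor the gate of the sorter.

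Interferon gamma signals through Ifngr1 and Ifngr2, and type I interferons through Ifnar1 and Ifnar2. Both pathways end in STAT proteins and interferon regulatory factors, which bind the GAS site and the interferon-stimulated response element (ISRE). Among the targets are the immunoproteasome and TAP genes, whose products cut and transport peptides onto class I molecules for display to CD8 T cells. Resident fibroblasts, endothelial cells and Schwann cells of a nerve carry class I molecules at low resting levels and can raise them under interferon.

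The injured beads library holds 10859939 UMIs in 4300 barcodes and the FACS library 7122377 UMIs in 2000 barcodes, with medians of 1343 and 2357 UMIs per barcode. The authors' mesenchymal tables hold 1289 injured cells (4746263 UMIs, median 2798) and 880 uninjured cells (2169121 UMIs, median 2103). All 1289 injured mesenchymal barcodes are also barcodes of the injured beads table, with 0 counts that differ, 1 barcode is shared between the beads and FACS libraries, and no other pair of libraries shares one. Levels are counts per 1000000 (CPM) of the UMIs summed over a pool of cells, with an exact Poisson 95% interval. With 1 library per group there is no replicate spread and no test. A ratio carries a 95% interval that covers counting error only, and it is too narrow where a few cells hold many of a gene's UMIs. A member is called higher or lower when 1 of the 2 pools reaches 50 CPM, the pools differ at least 2-fold and the interval excludes equality. The markers of the mesenchymal class summed to 70274 CPM in the injured and 119222 CPM in the uninjured table, so both held the labelled cell type. The 13 macrophage or monocyte markers together reached 312 CPM in the injured and 25.8 CPM in the uninjured table, where 5 of them (Adgre1, C1qa, C1qc, Ms4a7, Fcgr1) were at 0 UMIs. Their part in the ratios of the 2 whole tables was not tested beyond leaving out cells, as given below.

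The promoters were searched for short exact forms of the 2 DNA elements of this response. The sequences printed belong to members that have a promoter entry and differ past the size rule in at least 1 comparison below. Of the 36 members, 33 matched RefSeq promoter entries (GRCm38.p6; 40 entries, 250 bases before to 50 after the start site), and Iigp1, Nlrc5 and Tap2 had none. The ISRE core was searched as GAAA, any 2 bases and GAAA, and the GAS element as TTCNNNGAA, on both strands, with overlapping matches counted. The ISRE core occurred in 15 of the 40 member promoters (37.5%) and in 1131 of all 32851 promoters of the table (3.44%). GAS occurred in 11 of 40 (27.5%) against 2726 of 32851 (8.30%). A match is a description of the letters and not a binding site. Looser forms of either element were not searched, so a missing match does not mean that the element is absent. In the sequences below, written 5′ to 3′ on the strand of the gene, capitals mark the matches; on the opposite strand the ISRE core reads TTTC, any 2 bases and TTTC. The first 4 are the 250 bases upstream of the RefSeq start of Gbp7 (chr3:142530086-142530335, plus strand), Igtp (chr11:58199306-58199555, plus strand), Isg15 (chr4:156200819-156201068, minus strand) and Irf1 (chr11:53769764-53770013, plus strand).
Gbp7: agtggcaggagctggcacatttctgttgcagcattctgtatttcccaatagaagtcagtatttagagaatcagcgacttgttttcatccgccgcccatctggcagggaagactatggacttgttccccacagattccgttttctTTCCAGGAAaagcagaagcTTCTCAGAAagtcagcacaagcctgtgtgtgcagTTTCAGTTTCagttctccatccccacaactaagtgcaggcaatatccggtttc
Igtp: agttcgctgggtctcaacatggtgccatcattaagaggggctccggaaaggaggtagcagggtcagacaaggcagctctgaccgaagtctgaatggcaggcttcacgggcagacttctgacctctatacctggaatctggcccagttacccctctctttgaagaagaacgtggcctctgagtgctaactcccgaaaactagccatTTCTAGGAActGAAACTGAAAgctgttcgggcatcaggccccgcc
Isg15: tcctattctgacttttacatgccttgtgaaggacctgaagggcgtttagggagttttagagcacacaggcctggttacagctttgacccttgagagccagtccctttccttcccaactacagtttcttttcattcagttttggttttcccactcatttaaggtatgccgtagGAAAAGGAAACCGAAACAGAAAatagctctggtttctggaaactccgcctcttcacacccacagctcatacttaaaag
Irf1: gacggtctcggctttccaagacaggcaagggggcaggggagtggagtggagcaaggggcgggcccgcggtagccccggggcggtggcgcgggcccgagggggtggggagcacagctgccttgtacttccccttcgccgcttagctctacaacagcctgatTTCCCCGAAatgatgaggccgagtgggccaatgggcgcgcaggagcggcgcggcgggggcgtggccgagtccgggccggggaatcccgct

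Short stretches around the matches of 6 further members follow: Gbp2 (chr3:142620598-142620619, plus strand), Gbp3 (chr3:142559993-142560020, plus strand), B2m (chr2:122147542-122147563, plus strand), Psmb8 (chr17:34198092-34198112, plus strand), Irgm1 (chr11:48871429-48871456, minus strand) and Bst2 (chr8:71537581-71537614, minus strand). The match begins 59 bases before the RefSeq start in Gbp2, 45 in Gbp3, 139 in B2m, 97 in Psmb8, 30 in Irgm1 and 136 in Bst2. Bst2 holds an ISRE core pair that overlaps a GAS match.
Gbp2: ttttagTTTCACTTTCactgtc
Gbp3: acacagTTTCAGTTTCTATTTCccagat
B2m: gaacatGAAACTGAAAatggga
Psmb8: ccgctgTTCCCAGAAgatgcc
Irgm1: tttcaaGAAATAGAAACCGAAActgatt
Bst2: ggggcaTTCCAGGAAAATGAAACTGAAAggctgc
The Gbp genes lie side by side on chromosome 3, and H2-K1 (chr17:33996017-34000347, minus strand), H2-D1 (chr17:35262730-35267499, plus strand), Tap1, Tap2, Tapbp, Psmb8 and Psmb9 share chromosome 17. The classical class I genes, the Gbp genes, Ifitm2 with Ifitm3, and Ifit3 with its neighbour Ifit3b are near copies, so the authors' counting could split or lose their reads. The reference is C57BL/6J, while CD1 is outbred and class I genes are polymorphic, so levels of H2-K1 and H2-D1 are uncertain in either mouse stock.

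Across the whole mesenchymal tables, the 36 genes as a group differed little between injured and uninjured nerve. In the injured pool Iigp1, an immunity-related GTPase induced by interferon gamma, was higher at 67.2 against 17.5 CPM (log2 ratio 1.94, interval 1.45 to 2.46). Irf1, a transcription factor induced by interferon and by acute stress, was lower at 79.9 against 160.0 CPM (-1.002, -1.22 to -0.79). B2m, the invariant class I light chain, reached 1671 against 1119.8 CPM (0.58, 0.51 to 0.64) without doubling. Of the 36 members, 18 reached 50 CPM in a pool, 1 of them was higher and 1 lower. Over all 3964 genes past the same floor, 8.17% were higher and 7.14% lower, so the members' counts lie near the background. The median log2 ratio was 0.25 for the 18 members and 0.20 for all genes past the floor. The interval lay above 0 for 14 of the 36 members, below 0 for 3 and held 0 for 19. Over the 3964 genes past the floor, 47.07% had an interval above 0 and 23.06% below, so these counts show no upward shift of the members.

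The receptor chains differed in direction. Ifngr1, the ligand-binding chain of the interferon gamma receptor, was at 119.5 against 216 CPM (log2 ratio -0.86). Its partner Ifngr2 was at 77.5 and 43.8 CPM (0.82). Neither ratio reached 2-fold. The type I receptor chains were close in the 2 pools, with Ifnar1 at 71.0 and 59.5 CPM and Ifnar2 at 109.8 and 99.6 CPM, and both intervals held 0.

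Among the transcription factors, only Irf1 reached the floor. Its lower level stood beside that of the immediate early and dissociation stress genes, of which 12 of 19 past the floor were lower and 1 higher (median log2 ratio -1.08; Fos 2034 against 6323 CPM), and the part of this stress list in the Irf1 ratio was not tested. Stat2 and Irf9, partners in the factor that binds the ISRE, were at 33.3 against 32.3 CPM and 39.4 against 34.1 CPM. Irf7, the amplifier of the type I response, was at 6.53 and 6.45 CPM. Irf8, a factor of myeloid and B cells, was at 3.58 and 3.23 CPM, and Nlrc5, the class I transactivator, at 3.58 and 0.92 CPM on 17 and 2 UMIs.

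The heavy chains did not follow B2m. H2-K1 stood at 479 against 460 CPM, a log2 ratio of 0.06 that became -0.07 under TMM scaling. H2-D1 was at 663 and 1006 CPM (-0.60, -0.68 to -0.52). The 3 class I transcripts summed to 2812 and 2586 CPM. Of the loading genes, Tap1, a chain of the peptide transporter, was at 20.9 against 9.68 CPM on 99 and 21 UMIs, under the floor. Tap2, the other chain, was at 47.8 and 43.3 CPM, and Tapbp, which bridges transporter and class I, at 139.5 and 150.8 CPM.

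The 5 immunoproteasome members had a median log2 ratio of 0.23, near the 0.20 of all genes past the floor. All 5 ratios lay above 0, between 0.18 and 0.92, and none reached 2-fold. Psmb8, an inducible catalytic subunit, was nearest at 61.9 against 32.7 CPM (0.92, 0.54 to 1.32). Psmb10, another such subunit, was at 89.1 and 52.1 CPM (0.77) and Psmb9 at 25.1 and 21.7 CPM. The activator subunits Psme1 and Psme2 were at 120.9 against 102.8 CPM and 114.2 against 101.0 CPM. Of the constitutive subunits that the inducible ones replace, Psmb5 was at 88.3 against 93.6 CPM, Psmb6 at 207 against 176 CPM and Psmb7 at 59.6 against 71.0 CPM.

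The antiviral effectors showed no common direction. Ifitm2 and Ifitm3, membrane proteins that block virus entry, were at 1108 against 871 CPM and 1192 against 1099 CPM. The Ifitm3 log2 ratio of 0.12 became -0.01 under TMM scaling. The other 7 were under the floor in both pools. Of these, Isg15, a ubiquitin-like modifier, was at 21.7 and 12.45 CPM, and Bst2, a tether of budding virions, at 36.9 and 29.5 CPM. The RNA-binding Ifit1, Ifit2 and Ifit3 were at 6.74 against 4.61, 14.1 against 18.9 and 2.95 against 3.69 CPM. Ifi35 was at 29.3 and 38.7 CPM and the RNA sensor Ifih1 at 20.9 and 26.3 CPM.

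The GTPases, which attack the membranes around intracellular pathogens, all had log2 ratios above 0. Gbp2 was at 75.01 against 45.6 CPM (0.72, 0.39 to 1.05) and Gbp7 at 67.8 against 50.7 CPM (0.42, 0.10 to 0.75). Gbp3 (27.4 against 12.9 CPM) and Igtp (10.8 against 4.15 CPM) had ratios above 2-fold but stayed under the floor. Irgm1 was at 30.3 and 25.4 CPM. The intervals lay above 0 for 5 of the 6, all except Irgm1, beside 47.07% of the 3964 genes past the floor.

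Leaving out cells changed the 2 calls unequally. Both filters below count marker UMIs per cell, so they remove deep cells more readily. Median depth was 1575.5 injured and 2036.5 uninjured UMIs after the immune filter. It was 734 and 1090 UMIs after the filter on any other class, from 2798 and 2102.5 before. The part of depth and of the subclass mix in the changed ratios was not tested. Without cells holding 2 or more UMIs of immune markers (768 of 1289 injured and 822 of 880 uninjured cells left), the Iigp1 ratio was 2.51 (1.99 to 3.07) and Irf1 -0.87, under 2-fold. Without cells holding 3 or more UMIs of any other class's markers (359 and 136 cells left), Iigp1 was 2.72 and Irf1 turned to 0.22 (-0.75 to 1.27). Irf1 also missed 2-fold, at -0.93 and -0.99, with the mesenchymal-like clusters as the injured pool and without the unnamed clusters described next.

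**Figure D1:**
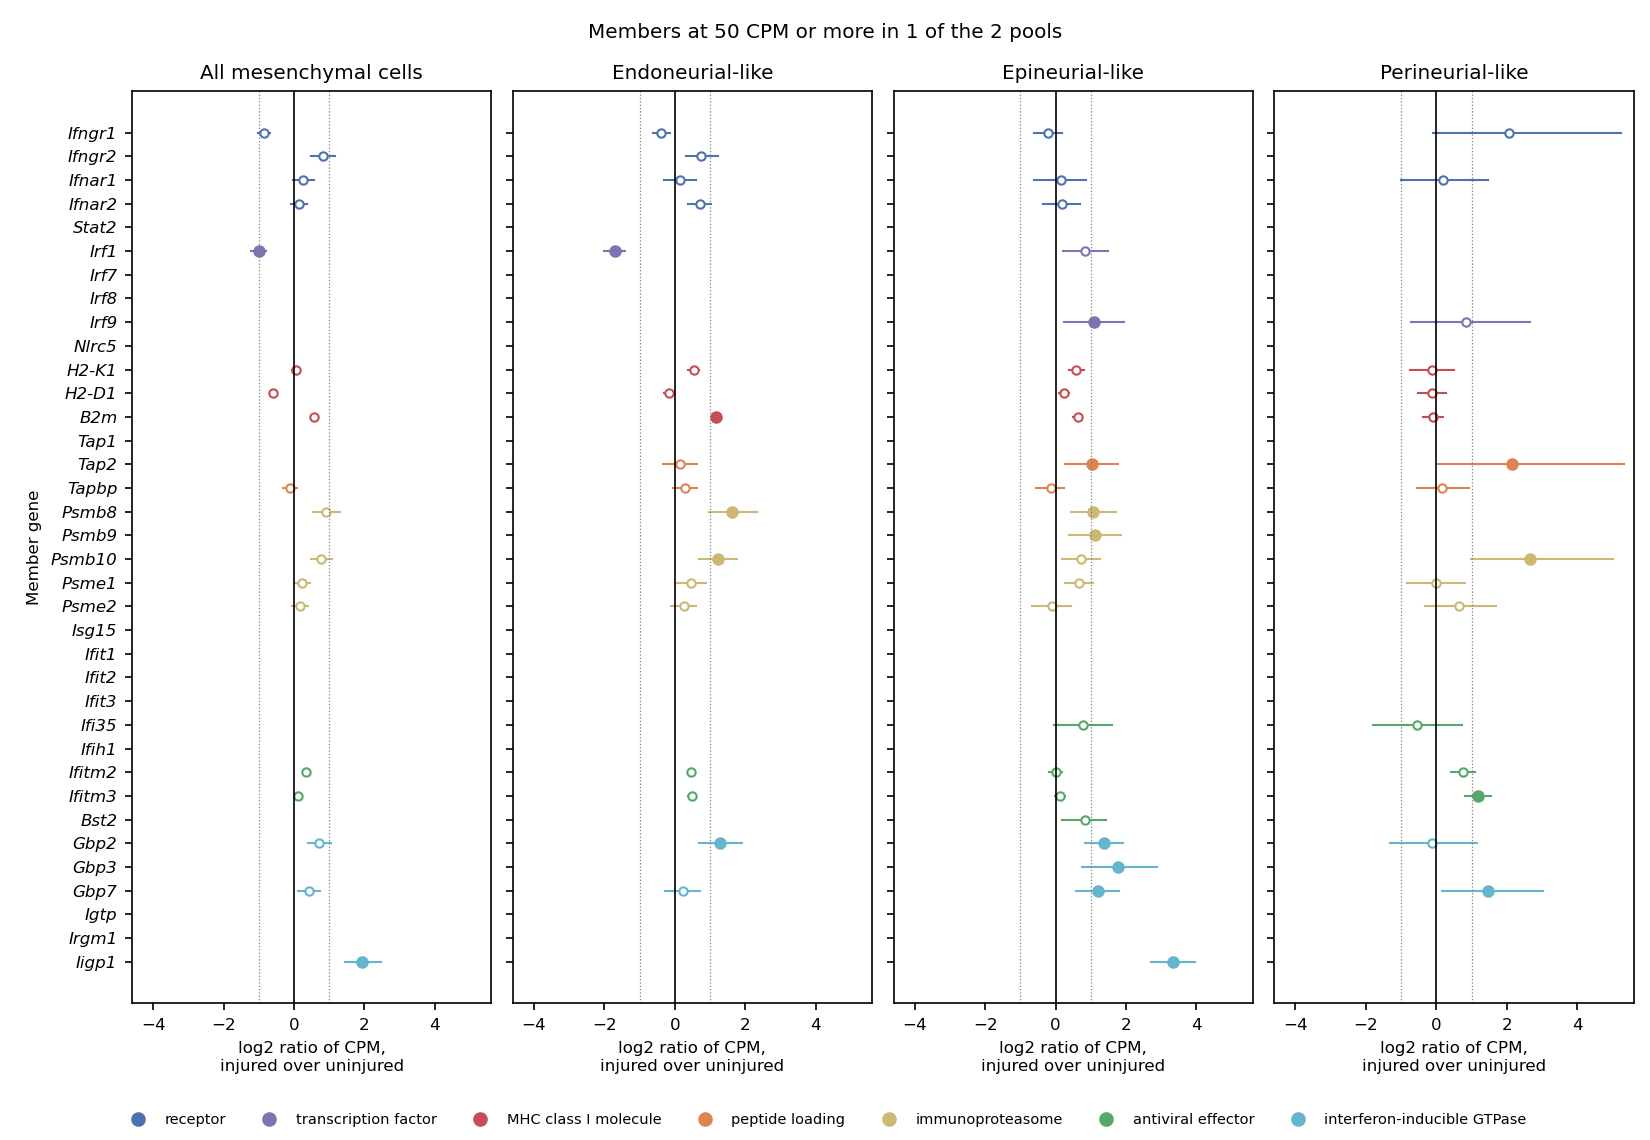
Each panel plots, for members of at least 50 CPM in 1 of the 2 pools, the log2 ratio of injured over uninjured CPM with its 95% counting interval as a line; filled points passed the size rule, open points did not, and dotted lines mark 2-fold. In all mesenchymal cells 2 filled points stand apart, Iigp1 at 1.94 and Irf1 at -1.002, while in epineurial-like cells 8 points are filled, all on the higher side.

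The differences were larger inside the anatomical subclasses. Mesenchymal cells were clustered without the members and named from markers: endoneurial-like (inside the fascicles), epineurial-like (the outer sheath), perineurial-like (the barrier around fascicles) and differentiating-like, a class of the injured nerve. The mix differed between the tables, since epineurial-like cells were 195 of 1289 injured and 380 of 880 uninjured cells, and differentiating-like cells were 385 and 0. In injured tissue 385 cells sat in 2 clusters left unnamed for shallow depth or mixed markers, with Iigp1 at 64.3 and 53.1 CPM.

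Epineurial-like cells carried the clearest difference, led by the GTPases. Iigp1 stood at 309 CPM in injured against 30.9 CPM in uninjured epineurial-like cells, a 10.03-fold difference (log2 ratio 3.33, 2.72 to 3.97). It was higher in each of the 3 epineurial-like clusters, at 113.0 against 35.1, 404 against 29.8 and 417 against 21.9 CPM. These clusters are parts of the same library pair and not repeats of the comparison. Few cells held most of the injured Iigp1 UMIs, as given below, so its counting interval is too narrow. Gbp3 was at 53.3 against 15.4 CPM (1.79), Gbp2 at 159.8 against 61.7 CPM (1.37) and Gbp7 at 121.7 against 52.9 CPM (1.20). The 2 GTPases under the floor, Igtp and Irgm1, were at 22.8 against 2.20 CPM and 30.4 against 14.3 CPM. All 6 GTPases thus had log2 ratios of at least 1.09, although the Irgm1 interval held 0.

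In the same cells 3 antigen processing genes and a transcription factor lay just past 2-fold. Psmb9 was at 83.7 against 38.6 CPM (1.12), Psmb8 at 106.5 against 50.7 CPM (1.07), Tap2 at 78.6 against 38.6 CPM (1.03) and Irf9 at 63.4 against 29.8 CPM (1.09). These 4 and the 4 GTPases past the floor make 8 members higher and 0 lower, of 23 past the floor. Over 3832 genes in this comparison 4.36% were higher and 2.14% lower. The median log2 ratio was 0.73 for the 23 members and 0.15 for all genes past the floor. B2m was at 2247 against 1448 CPM (0.63), H2-K1 at 824 against 547 CPM (0.59) and H2-D1 at 1572 against 1323 CPM (0.25), and their sum at 4644 against 3317 CPM. Other antigen processing members were close in the 2 pools, with Tapbp at 190 against 209 CPM and Psme2 at 104 against 111 CPM. The receptors did not share the pattern of the GTPases, with Ifngr1 at 185 and 215 CPM and Ifnar2 at 119.2 and 105.8 CPM.

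The count of 8 depends on scaling and on how cells were assigned. Under TMM scaling, which shifts all log2 ratios of this comparison by -0.17, the 4 GTPases stayed higher and all 4 other calls were lost, with Psmb9 at 0.95, Irf9 at 0.92, Psmb8 at 0.90 and Tap2 at 0.86. When each cell was assigned by its highest subclass marker score, 3 members were higher (Iigp1, Gbp2, Gbp3). Iigp1 kept a ratio of 3.14 to 3.33 in the 3 settings. The macrophage or monocyte list reached 210.5 CPM in the injured and 24.3 CPM in the uninjured epineurial-like cells, with 2 and 6 of 13 markers at 0, and their part in these ratios was not tested. Endothelial markers summed to 682 and 593 CPM and the 12 pericyte or smooth muscle markers to 441 and 353 CPM. Of the latter Rgs5 stood at 119.2 against 17.6 CPM, and its part in the Iigp1 ratio was not tested.

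Endoneurial-like cells showed a narrower set. B2m was higher at 1877 against 834 CPM (log2 ratio 1.17, 1.06 to 1.28), Psmb8 at 66.8 against 21.6 CPM (1.63), Psmb10 at 79.4 against 34.1 CPM (1.22) and Gbp2 at 67.4 against 27.8 CPM (1.27). Irf1 was lower at 80.6 against 263 CPM (-1.71, -2.01 to -1.41). These are 4 higher and 1 lower of 18 members past the floor, beside 11% higher and 9.5% lower of 3717 genes. H2-K1 was at 590 against 407 CPM (0.54) and H2-D1 at 701 against 787 CPM (-0.17), and the class I sum was 3168 against 2028 CPM. Nearly all cells of this name lie in separate clusters, with 248 of 249 injured cells in 1 cluster and all 428 uninjured cells in another, so subclass and library cannot be told apart here. The macrophage or monocyte list reached 232 CPM in the injured and 13.5 CPM in the uninjured cells, with 1 and 7 of 13 markers at 0 (Lyz2 182 against 2.69 CPM), and Cd74, an antigen presentation gene of immune cells, was at 46.9 against 4.49 CPM. Their part in these ratios was not tested.

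Irf1 had ratios of opposite sign in the 2 subclasses. In epineurial-like cells it stood at 98.9 CPM after injury against 55.1 CPM without (0.84, 0.20 to 1.48), short of 2-fold. Its level in uninjured endoneurial-like cells was the highest of the named mesenchymal pools. There 75 of its 293 UMIs came from 5 cells.

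In perineurial-like cells (75 injured, 66 uninjured) 4 of 16 members past the floor were higher and 0 lower, beside 5.98% and 7.62% of 4898 genes. Ifitm3 was at 1304 against 578 CPM (1.17). Gbp7 (119.8 against 43.4 CPM), Psmb10 (138.2 against 21.7 CPM) and Tap2 (64.5 against 14.5 CPM) rested on 6, 3 and 2 uninjured UMIs. The macrophage or monocyte list was at 249 against 43.4 CPM here, with 4 and 10 of 13 markers at 0 (Lyz2 156.7 against 7.23 CPM), and its part was not tested. Iigp1 had 0 UMIs in both pools, where 3 counts would be 13.8 and 21.7 CPM, so the epineurial-like difference was not seen in these cells at this depth.

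Within the injured table, differentiating-like and endoneurial-like cells differed in few members. Ifngr1 was at 66.3 against 187 CPM (-1.50) and Ifnar2 at 76.3 against 167 CPM (-1.13), which are the 2 members lower of 19 past the floor, with 0 higher. Over 4077 genes 10.4% were higher and 7.16% lower, so the count of lower members lies near the background. Assigning cells by marker score left Ifngr1 lower, took Ifnar2 under 2-fold (-0.94) and made Iigp1 higher (log2 ratio 1.93). Epineurial-like against endoneurial-like injured cells gave 10 members higher and 1 lower of 24 past the floor (14.7% and 9.74% of 4119 genes). Bst2 (101.4 against 15.6 CPM), Psmb9 (83.7 against 19.2 CPM), H2-D1 (1572 against 701 CPM) and Iigp1 (309 against 33.7 CPM) were among them, and Ifngr2 was the lower one. In uninjured nerve the same contrast gave 6 higher and 1 lower of 19 (12.1% and 9.83% of 3714 genes), with Bst2 again at 57.3 against 10.8 CPM and Irf1 the lower one.

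The FACS library gave an injured mesenchymal-like pool of 673 cells whose strain, isolation and selection differ from the uninjured table. Against that same uninjured pool, 1 of 18 members past the floor was higher and 1 lower, beside 11% and 8.24% of 3942 genes. Psmb8 was higher at 66.8 against 32.7 CPM (1.03) and Irf1 lower at 70.1 against 160.0 CPM (-1.19). B2m was at 1618 CPM (0.53), H2-K1 at 357 CPM (-0.36), H2-D1 at 657 CPM (-0.62), Psme2 at 191 CPM (0.92) and Bst2 at 58.45 CPM (0.99). Iigp1 stood at 27.2 CPM (0.64, 0.10 to 1.21) and did not reach the floor. The macrophage or monocyte list reached 1117 CPM in this pool, with none of 13 at 0, and their part was not tested. Because the uninjured pool is shared, the 2 injured pools do not give independent ratios.

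Single cells showed how unevenly the response was spread. To compare cells of different depth, each was thinned to 1000 UMIs and cells below that depth were left out (315 of 1289 injured, 119 of 880 uninjured). The count was of different members seen per cell among 20 interferon-induced ones, namely the GTPases, Stat2, Irf7, Irf9, Nlrc5, Tap1, Psmb8, Psmb9, Isg15, Ifit1, Ifit2, Ifit3, Ifi35, Ifih1 and Bst2. At least 2 were seen in 115 of 974 injured cells (11.8%, exact binomial 95% interval 9.85 to 14) and in 55 of 761 uninjured cells (7.23%, 5.49 to 9.30). In epineurial-like cells the shares were 18.4% (12.6 to 25.3) and 9.88% (6.85 to 13.7), and in endoneurial-like cells 7.44% (4.47 to 11.5) and 4.70% (2.81 to 7.33). These intervals cover the sampling of cells within 1 library per group and not the spread between nerves, so they do not compare the conditions. Schwann cell-like cells of the injured beads library, a class with low member levels, gave 8.88% (6.07 to 12.4) at the same depth. Without thinning the shares were 38.0% of 1289 injured and 22.3% of 880 uninjured cells, at median depths of 2798 and 2103 UMIs, and 20.9% of 474 Schwann cell-like cells.

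Part of these UMIs lay in few cells. At least 4 different induced members were seen in 13 of 974 injured cells, 7 of them epineurial-like, 5 differentiating-like and 1 endoneurial-like, and in 3 of 761 uninjured cells. Without thinning, 143 injured and 26 uninjured cells held at least 4, and the richest 5% of injured cells (64 cells) held 35.2% of the induced members' UMIs and 9.52% of all UMIs. The richest 44 uninjured cells held 27.3% and 9.16%. In injured epineurial-like cells the richest 10 of 195 held 43.9% and 8.61%, against 24.2% and 8.46% in uninjured ones, while endoneurial-like cells had the other order, with 25.25% in injured and 30.4% in uninjured cells. Because the richest cells are picked on these same sparse UMIs, some concentration is fixed by the choice. For Iigp1 the concentration was stronger. Of its 122 UMIs in injured epineurial-like cells, 70 came from 5 cells, and 22 of the 195 cells held any. In injured endoneurial-like cells 5 cells held 47 of 56 UMIs. By contrast B2m was seen in 169 of the 195 epineurial-like cells, 5 of which held 101 of 886 UMIs.

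The 13 cells were picked on the induced members, so only other genes describe them. Cxcl9, an interferon gamma target, stood at 526 CPM in them (30 UMIs in 6 cells) and 42.8 CPM in the other 961 injured cells. Cxcl10 was at 70.1 against 40.8 CPM, on 4 UMIs in 2 of the 13 cells. Irf1 was at 263 against 79.4 CPM, on 15 UMIs in 6 cells. Psmb10 was at 316 against 87.1 CPM, H2-K1 at 806 against 475 CPM and B2m at 2980 against 1665 CPM. Col1a1, a fibroblast collagen gene, was at 7819 against 8556 CPM in them. Of immune and endothelial markers, they held 10 UMIs of the myeloid gene Lyz2 in 5 cells (175 against 221 CPM in the other cells), 4 of Cd74 in 3 cells (70.1 against 67.8 CPM), 2 of H2-Ab1, 1 of the leukocyte gene Ptprc and 0 of C1qa, Cd68 and Pecam1.

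**Figure D2:**
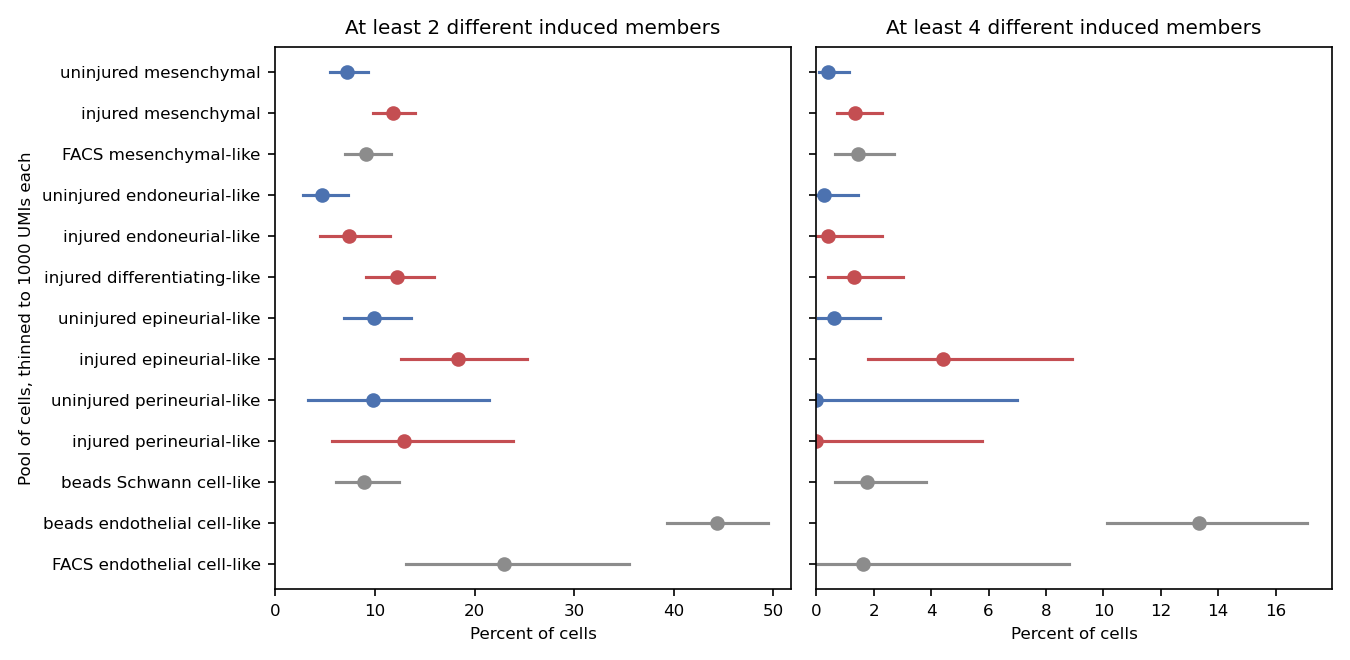
Points give the percentage of cells, each thinned to 1000 UMIs, in which at least 2 and at least 4 different induced members were seen, with exact binomial 95% intervals as lines, for the mesenchymal pools and for Schwann and endothelial classes of the injured libraries. Among the plotted pools, endothelial cell-like cells of the beads library stand highest at 44.4% for at least 2, and injured epineurial-like cells reach 18.4%. Immune classes are not plotted, and T or NK cell-like cells of the beads library reached 48.1% of 79 thinned cells.

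In the injured nerve as a whole, class I transcripts were most abundant in lymphoid, myeloid and endothelial cells and least abundant in mesenchymal and Schwann cells, while single members followed other orders. Cells of the injured beads library were clustered without the members and named from markers. Among 8 classes the summed class I level (H2-K1, H2-D1 and B2m) ran from 16890.5 CPM in T or NK cell-like and 16117 CPM in neutrophil-like cells, over 13188.5 in mononuclear phagocyte-like, 10031 in endothelial cell-like and 6444 in B cell-like cells, to 3843 in pericyte or smooth muscle cell-like, 2861.5 in mesenchymal-like and 2646 CPM in Schwann cell-like cells. The counting intervals of neighbours in this order did not overlap except for the T or NK cell-like and neutrophil-like pair. The median thinned cell held 17 class I UMIs per 1000 in T or NK cell-like cells, 12 in phagocyte-like, 9 in endothelial cell-like and 2 in mesenchymal-like and Schwann cell-like cells. Member by member, the lowest of the 8 classes was B cell-like for 15 of the 36, Schwann cell-like for 14, mesenchymal-like for 3 and neutrophil-like for 2. How often each class is lowest over all genes was not counted.

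**Figure D3:**
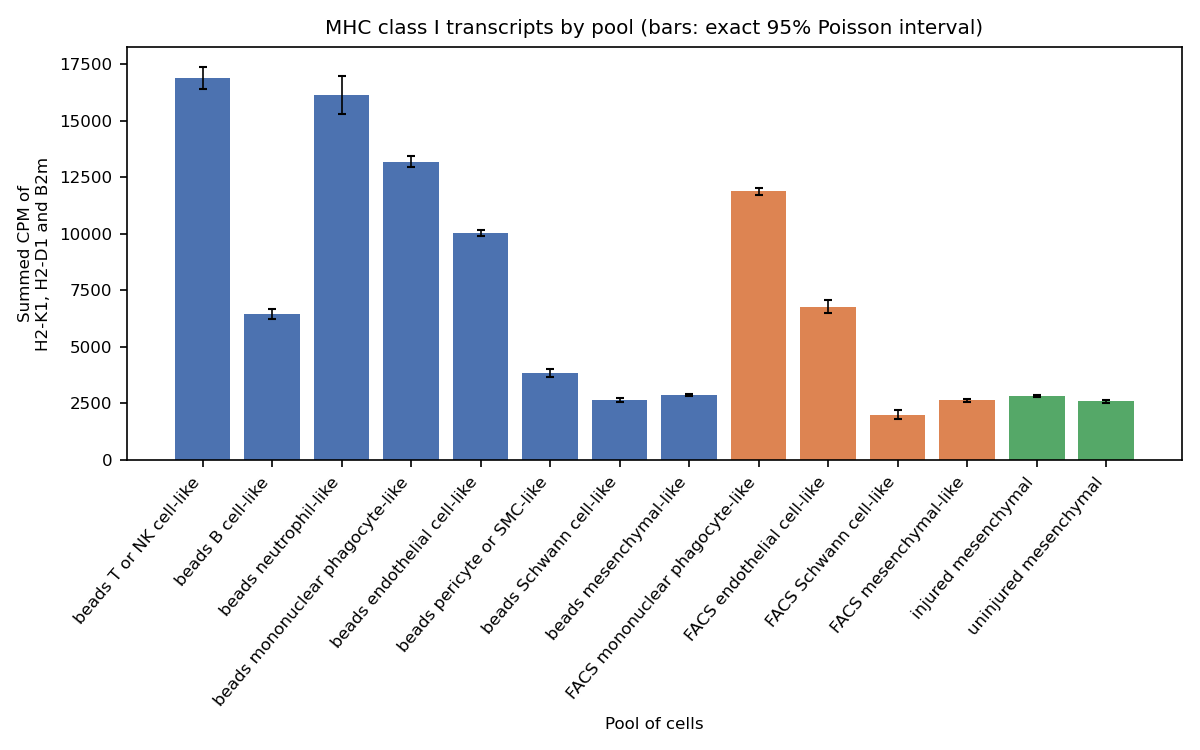
The bars show the summed CPM of H2-K1, H2-D1 and B2m in each class of the injured beads and FACS libraries and in the 2 whole mesenchymal tables, with exact Poisson 95% intervals. Lymphocyte, neutrophil, phagocyte and endothelial classes lie at 6444 CPM or above, and the pericyte and Schwann classes, the mesenchymal-like classes and both whole mesenchymal tables at 3843 CPM or below; the mesenchymal subclasses, of which injured epineurial-like cells reached 4644 CPM, are not plotted.

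Endothelial cell-like cells (579) carried all 6 GTPases past the size rule against the other named cells of the library. Iigp1 was at 510 against 69.6 CPM (7.33-fold), Gbp3 at 142 against 38.0 CPM, Gbp7 at 288 against 81.9 CPM, Gbp2 at 350 against 113 CPM, Igtp at 62.2 against 19.2 CPM and Irgm1 at 89.7 against 33.0 CPM. They also held the most Ifitm3 (3047 CPM) and Bst2 (191 CPM), and Irf1 at 287 against 84.7 CPM. In all 14 of 30 members past the floor were higher and 1 lower, beside 15.5% and 15.2% of 4862 genes. The lower one was Irf8, at 30.4 CPM.

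Iigp1 was in 107 of 390 thinned endothelial cell-like cells (27.4%, 23.1 to 32.2) and in 2 of 131 B cell-like cells (1.53%, 0.19 to 5.41). The neighbouring vascular class, pericyte or smooth muscle cell-like cells (270), had Iigp1 at 315 against 152 CPM and Ifngr2 at 198.5 against 75.5 CPM as its 2 members higher, with 4 of 27 lower (11.6% and 14.3% of 4816 genes). Of its Iigp1, 95 of 176 UMIs came from 5 cells. The cluster led by Rgs5 had 386 CPM and the one led by the smooth muscle gene Myh11 had 64.3 CPM.

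Neutrophil-like cells (124 cells, median 593.5 UMIs, 1 cluster) were the highest class for 22 of the 36 members, and in 10 of these the interval of the ratio to the next class excluded equality (Irf1, Irf7, Nlrc5, Tapbp, Isg15, Ifitm2, Gbp2, Gbp7, Igtp, Irgm1). The other 12 were not apart from the next class. This pool is the smallest of the 8 classes, at 87050 UMIs, and how often it is highest over all genes was not counted. Gbp2 was at 2768.5 against 139 CPM (log2 ratio 4.32). Isg15 was at 1597 against 32.5 CPM (5.62), with 50 of its 139 UMIs in 5 cells. Irf1 was at 712 CPM, Gbp7 at 643 CPM, Tapbp at 425 CPM, Irgm1 at 229.8 CPM, Tap1 at 195 CPM and Igtp at 149 CPM. Irf7 and Nlrc5 each reached 126 CPM on 11 UMIs and were at most at 23.2 and 17.4 CPM in the other 7 classes. Stat2, Ifih1 and Ifnar1 were highest here at 80.4, 80.4 and 149 CPM, as were Ifit1 and Ifit3 at 22.98 and 11.5 CPM on 2 and 1 UMIs. In all 20 of 33 past the floor were higher and 2 lower, beside 16.3% and 34.7% of 4700 genes. Iigp1 was the exception among the GTPases, with 0 UMIs and an upper interval limit of 42.4 CPM. Set to 3 counts, which would be 34.5 CPM, it was 4.72-fold lower than in the other cells.

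T or NK cell-like cells (211) had the highest H2-K1 (3422 CPM), Ifngr1 (476 CPM), Psmb8 (716 CPM), Psmb9 (390 CPM), Psmb10 (217 CPM) and Psme1 (401 CPM), of which Ifngr1, H2-K1 and Psmb9 were apart from the next class. Here 11 of 26 members were higher and 4 lower (20.9% and 23.8% of 5195 genes). The 4 were Ifitm2, Ifitm3, Bst2 and Iigp1, with Ifitm3 at 169 against 1459 CPM. B cell-like cells (389) held the most Irf8, a B cell and myeloid factor, at 476 against 34.3 CPM, and high Psmb8 (630 against 162 CPM) and Psmb9 (286 against 81.2 CPM). These 3 were higher and 8 of 26 lower (22.8% and 26.4% of 5231 genes), with Ifitm3 at 87.0 CPM, Gbp2 at 17.4 CPM and Iigp1 at 7.73 CPM.

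Mononuclear phagocyte-like cells (511; macrophage and dendritic markers joined) had 7 of 26 members higher and 1 lower (15.2% and 22.5% of 4830 genes). Irf8 was at 234 against 40.3 CPM, Ifngr1 at 306 against 138 CPM, Ifngr2 at 157 against 75.3 CPM and H2-D1 at 4803 against 1651 CPM, and Iigp1, at 33.4 CPM, was the lower one. They were the highest class for Ifnar2 at 233 CPM, not apart from endothelial cell-like cells at 198 CPM. Schwann cell-like cells (474) had 1 of 25 higher and 13 lower (14.3% and 15.3% of 4982 genes). The one higher was Ifit2, at 60.2 against 11.7 CPM, while H2-D1 was at 533 against 2120 CPM and Psmb8 at 39.9 against 206.5 CPM. Mesenchymal-like cells (1098) had 0 of 27 higher and 13 lower (12.6% and 17.8% of 4849 genes), with B2m at 1691.5 against 3985 CPM and Iigp1 at 69.95 against 231 CPM.

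**Figure D4:**
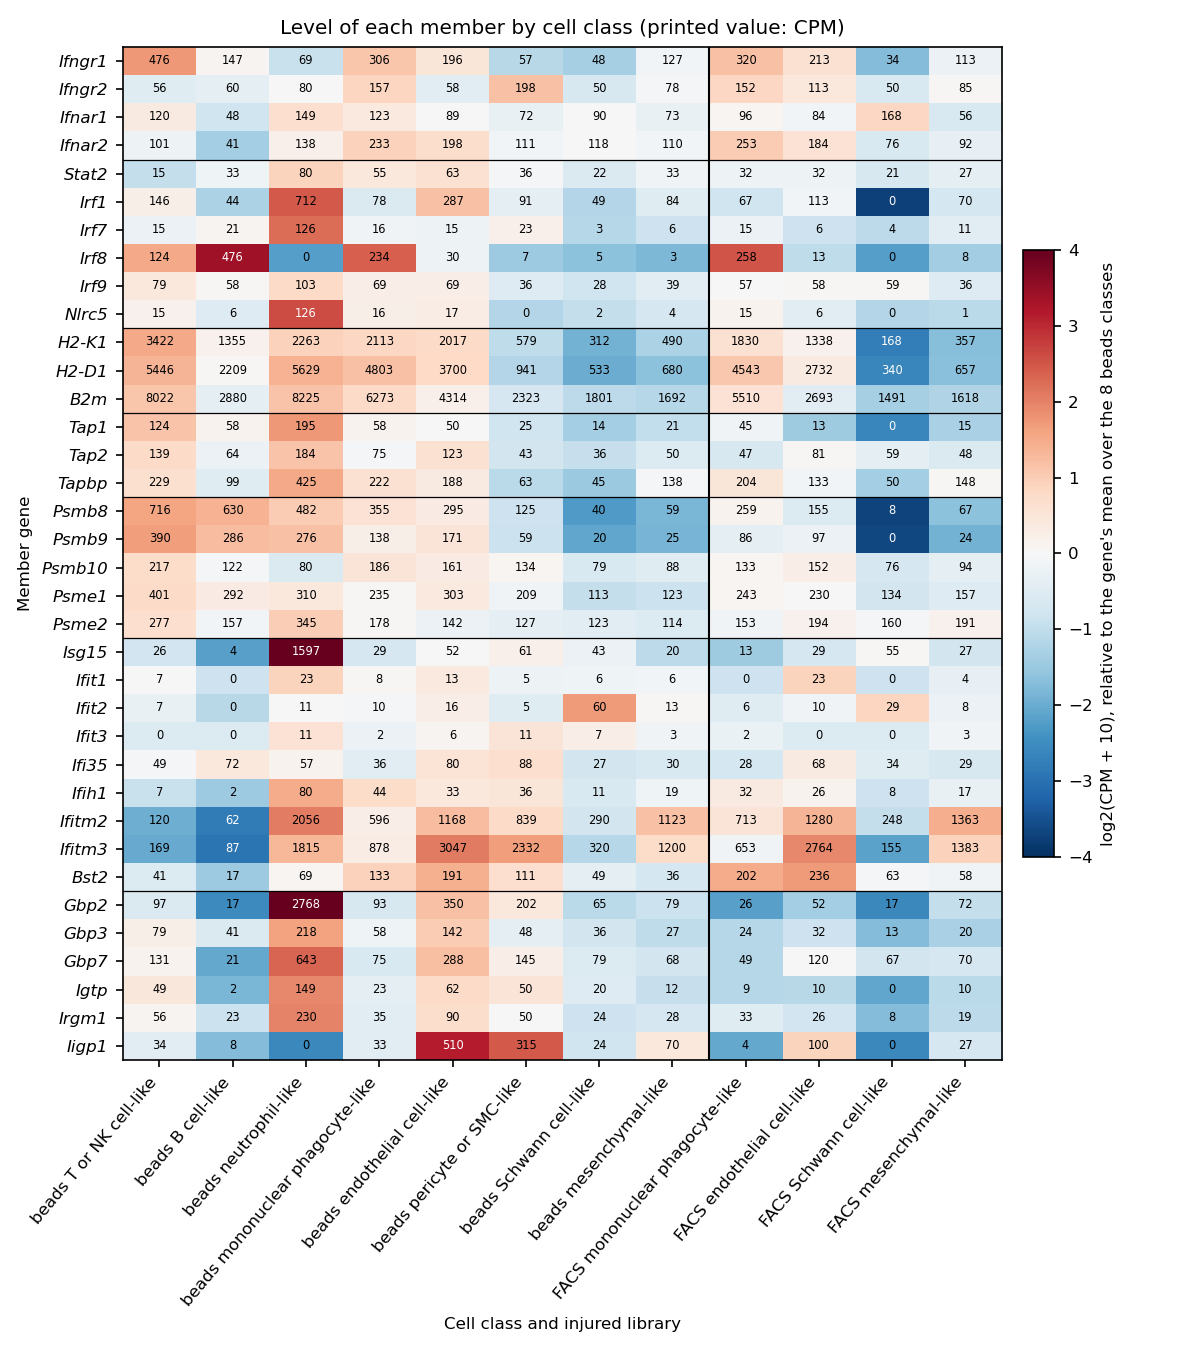
The vertical axis lists the 36 members and the horizontal axis the 8 classes of the injured beads library and 4 of the FACS library; each square prints the CPM, and the colour is log2(CPM + 10) relative to the gene's mean over the 8 beads classes. The neutrophil-like column is the highest beads column for 22 members, among them all GTPases except Iigp1. The endothelial cell-like column is highest for Iigp1, Ifitm3 and Bst2. The lowest beads column is B cell-like for 15 members and Schwann cell-like for 14. The same counts over all genes were not made.

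Only part of this order was seen in the FACS library, where 4 classes of at least 50 cells were named. Here too, how often each class is highest over all genes was not counted. Mononuclear phagocyte-like cells were highest for 15 members, 9 of them apart from the next class, and had 9 of 22 past the floor higher and 2 lower (18% and 26.4% of 4414 genes). H2-D1 stood there at 4543 against 792 CPM and Irf8 at 258 against 7.75 CPM. Endothelial cell-like cells, a cluster of 83 cells that also led with the pericyte gene Rgs5, were highest for 13 members, 5 of them (Irf1, Ifit1, Ifitm3, Gbp7, Iigp1) apart from the next class, with 5 of 24 higher and 1 lower (18% and 15.6% of 4677 genes). Iigp1 was at 100.2 against 19.5 CPM and Bst2 at 236 against 99.7 CPM. Mesenchymal-like cells had 1 of 22 higher, Gbp2 at 72.4 against 27.6 CPM, and 9 lower (19.5% and 17.8% of 4365 genes). Schwann cell-like cells (83) had 2 higher and 11 lower of 22 (21.9% and 15.3% of 4864 genes), with Ifnar1 and Isg15 the higher ones.

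Set side by side, the 2 injured libraries differed most, by the size rule, in the endothelial GTPases. The median GTPase ratio lay above 0 in the other shared classes too, as given below. This comparison was chosen after the values were seen, and strain, isolation and gate differ together and cannot be told apart. The FACS endothelial cell-like pool was the cluster of 83 cells that also led with Rgs5, against 579 cells with beads. In this FACS pool 3 counts would be 9.70 CPM, the level of Igtp below. The part of the pool's make-up in the ratios was not tested. In endothelial cell-like cells 8 of 29 members were higher in the beads library and 0 lower, beside 6.4% in either direction of 4550 genes. Gbp2 was at 350 CPM with beads and 51.7 CPM with FACS (log2 ratio 2.76), Igtp at 62.2 and 9.70 CPM (2.68), Iigp1 at 510 and 100.2 CPM (2.35), Gbp3 at 142 and 32.3 CPM (2.14), Irgm1 at 89.7 and 25.9 CPM (1.79) and Gbp7 at 288 and 119.6 CPM (1.27). Tap1 (50.15 and 12.9 CPM) and Irf1 (287 and 113 CPM) complete the 8. The median log2 ratio was 0.59 for the 29 members and 0.02 for all genes past the floor. Other class I genes differed less, with H2-D1 at 3700 and 2732 CPM.

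The other shared classes differed in fewer members past the size rule. Read without the floor, the median GTPase log2 ratio of beads over FACS was 2.24 in endothelial cell-like and 1.28 in mononuclear phagocyte-like cells. It was 1.23 in Schwann cell-like and 0.35 in mesenchymal-like cells, so a lean of the GTPases toward beads was not particular to endothelial cell-like cells. In mononuclear phagocyte-like cells Gbp2 (93.4 and 25.9 CPM) and Gbp3 (57.6 and 24.2 CPM) were higher with beads and none of 25 lower (4.53% and 2.27% of 3707 genes). In mesenchymal-like cells Iigp1 alone of 20 was higher, at 69.95 and 27.2 CPM (1.36), with 0 lower (1.53% and 3.59% of 3933 genes). In Schwann cell-like cells Ifitm3 and Gbp2 were higher and Irf9 lower of 19 (5.01% and 4.82% of 4712 genes). Gbp2 was thus higher with beads in 3 of the 4 classes, the mesenchymal-like class being the exception at 78.5 and 72.4 CPM.

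**Figure D5:**
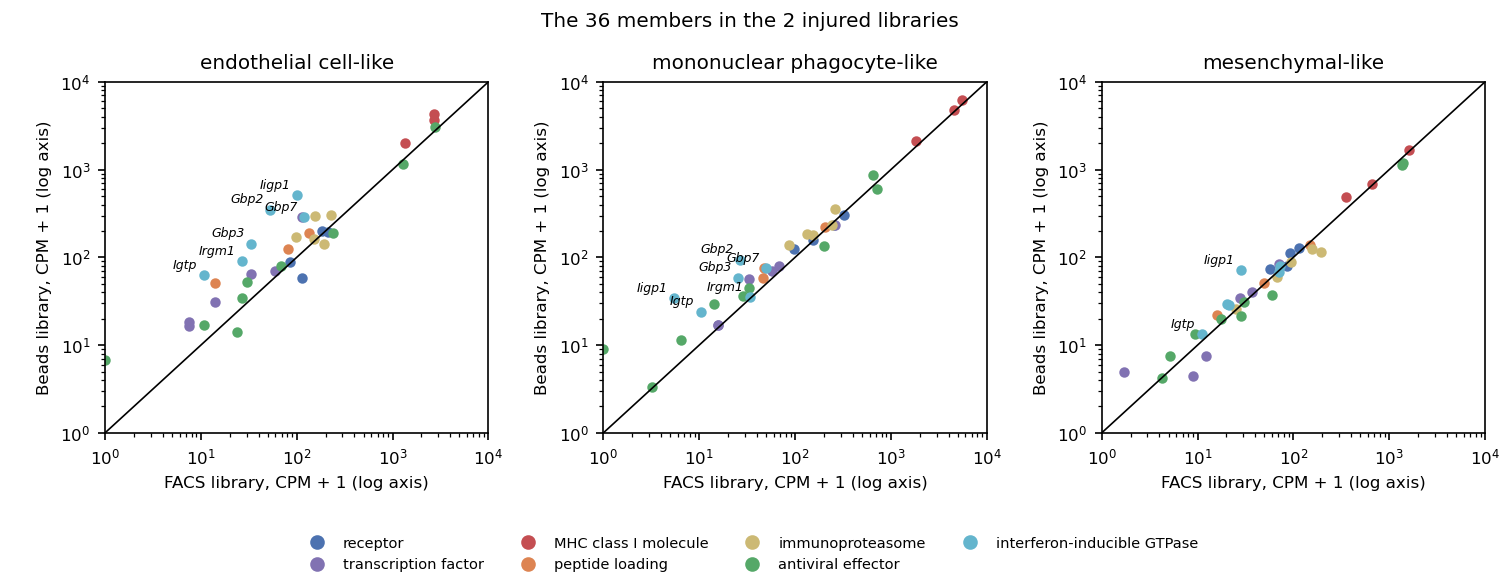
Each point is a member, with its CPM + 1 in the FACS library on the x axis and in the injured beads library on the y axis, both log scaled, for endothelial cell-like, mononuclear phagocyte-like and mesenchymal-like cells; the diagonal line marks equality. In the endothelial panel the 6 GTPases lie above the line, and in the mesenchymal panel Iigp1 stands farthest above it among the members past the floor.

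Endothelial cell-like cells of the beads library formed 2 clusters that differed in these genes. The cluster of 107 cells, led by Chga, Rbp7, Gpihbp1 and Cldn5, held more of 7 of 31 members past the floor and less of 1 than the cluster of 472 cells led by Darc, Vwf, Selp and Sele (4.89% of 4522 genes were higher and 5.48% lower in the larger cluster). In the smaller cluster Gbp2 was at 706 against 256 CPM, Gbp7 at 548 against 220.3 CPM, Gbp3 at 265 against 110.2 CPM and Igtp at 106.8 against 50.5 CPM. Isg15 (106.8 against 37.7 CPM), Ifit2 (53.4 against 6.09 CPM) and Ifih1 (67.3 against 24.4 CPM) followed. Irf1 was the one higher in the larger cluster, at 323 against 149 CPM. Iigp1 was at 764 against 444 CPM and B2m at 6034 against 3863 CPM, short of 2-fold.

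Other genes of the pathways were read from fixed lists in the whole mesenchymal tables. Of 23 other class I pathway genes 9 reached the floor, 0 were higher and 1 lower. That one was H2-T23, a nonclassical class I gene, at 58.4 against 160.4 CPM (-1.46), and the chaperones Pdia3 (1107 against 744 CPM) and Calr (1716 against 1173 CPM) had the highest log2 ratios. Of 74 other interferon-induced genes 15 reached the floor, 2 were higher and 1 lower. Casp4, an inflammatory caspase, was at 131.7 against 57.2 CPM (1.20) and Eif2ak2, the RNA-activated kinase PKR, at 61.7 against 29.0 CPM (1.09). Ifi27l2a was at 52.9 against 139 CPM (-1.40), and Ifi204 was next lowest at 120.9 against 178 CPM.

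Of 40 ligand and signalling genes 8 reached the floor. Ptpn2, a phosphatase that switches STAT signalling off, was higher at 71.2 against 30.9 CPM (1.21), and Socs3, a feedback inhibitor, lower at 179.5 against 595 CPM (-1.73). Jak1 was at 257 against 186 CPM and Irf2bp2 at 65.5 against 91.7 CPM. The same 3 lists were read in the FACS mesenchymal-like pool against the uninjured mesenchymal pool. The class I list gave 0 higher and 0 lower of 8, and the interferon-induced list 2 higher (Ly6e, Lgals3bp) and 0 lower of 15. The ligand and signalling list gave 1 higher (Tmem173) and 1 lower (Socs3) of 9. The ligand Ifng itself was nearly unseen, with 4 UMIs in the named cells of the injured beads library (2 in T or NK cell-like, 1 in B cell-like and 1 in phagocyte-like cells) and 0 in both mesenchymal tables.

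The ratios of members with and without the ISRE core had no common order across the classes. In epineurial-like cells 8 of the 15 members with a match reached the floor and 3 were higher (Gbp2, Gbp3, Gbp7), with a median log2 ratio of 0.75. Of the 18 members with a promoter entry and no match, 13 reached the floor and 3 were higher, with a median of 0.59. In endothelial cell-like cells of the beads library 7 of 12 with a match and 5 of 16 without were higher than in the other cells, with medians of 1.52 and 0.66. The order was the other way in B cell-like (-2.45 with and 0.21 without), T or NK cell-like (0.07 and 1.07) and mononuclear phagocyte-like cells (-0.05 and 0.78) of that library. For the GAS element, 2 of 8 members with a match and 4 of 13 without were higher in epineurial-like cells, with medians of 0.81 and 0.63. The members without a match to either exact form include H2-K1 and H2-D1, and looser forms were not searched.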

How the data were processed

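Drop-seq libraries of adult mouse sciatic nerve were used as 4 deposited tables of UMI counts per gene and cell: all cells of the injured beads library, all cells of the injured FACS library, and the mesenchymal cells of the injured and uninjured beads libraries. The values are the authors' raw counts, per the deposited tables, on mouse genome build mm10 per the submitters' processing notes. For the aligner, counter and annotation: not given in the sources used here.

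Counts were summed over pools of cells, divided by the pool's total UMIs and scaled to 1000000. Ratios carry an exact conditional binomial 95% interval. A pool at 0 was set to 3 counts. The size rule needs 50 CPM in 1 of 2 pools, a 2-fold difference and an interval without equality. No test across samples was possible, because each group is 1 library.

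Barcodes with at least 200 genes were clustered without the members (scanpy 1.11.5, leidenalg 0.10.2, 2000 variable genes, 30 components, 15 neighbours, resolution 0.8). A cluster was named from marker lists when its score was at least 1 and led by at least 1, with 3 markers in at least 5% of its cells. The macrophage and dendritic lists were joined as mononuclear phagocyte after the clusters were seen. Scrublet called 2 of 4111 and 5 of 1914 barcodes, under the share at which it can be taken to work, so doublets remain. Single cells were thinned to 1000 UMIs by random draws without replacement. Scaling alternatives used edgeR 4.0.16 TMM factors and DESeq2 1.42.0 size factors in R 4.3.3, and the pooling script was tested on simulated data.

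Values per pool are given for members of at least 50 CPM in a mesenchymal pool, and for the others in the class where they were highest. Of the other pathway lists, genes past the size rule and the 2 highest and 2 lowest ratios past the floor are named. A few others were named after their values were seen (Fos, Psmb5, Psmb6, Cxcl9, Cxcl10). Members and lists were chosen with earlier results of these data known. Promoters and start sites are from RefSeq and gene positions from GENCODE, both on GRCm38. Older symbols were matched to current ones for 4 genes.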

Additional observations from a re-analysis of the deposited data

Results flagged for a closer look

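The injured over uninjured log2 ratio of Irf1 was above 0 in epineurial-like cells (0.84) and below 0 in endoneurial-like cells (-1.71), a difference of 2.55 between the subclasses. H2-D1 also had opposite signs, at 0.25 and -0.17, a difference of 0.42. Each came to notice because the single library pair of one subclass moved one way and that of the other the opposite way. With 1 library per group neither difference was tested. The H2-D1 ratio in epineurial-like cells was 0.08 under TMM scaling and 0.01 with cells assigned by marker score.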

How the results depend on the processing

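No paired analysis was possible because each group is 1 library. In all mesenchymal cells 4 members were higher with a floor of 10 CPM, with no floor and with the 3 subclasses at the same weight, and 2 without cells holding 3 or more UMIs of other classes' markers. The count of lower members was 0 in that last setting, with the subclasses at the same weight, with the mesenchymal-like clusters as the injured pool and, added after the data were seen, without immune-marker cells and without the unnamed clusters. Irf1 turned to 0.22 without cells holding other classes' markers. That setting leaves far fewer and shallower cells. Iigp1 ran from 1.81 under TMM to 3.11 with the subclasses at the same weight. For the FACS mesenchymal-like pool against the uninjured pool, TMM gave 0 higher and 2 lower. In epineurial-like cells 3 members were higher by marker score and 4 under TMM. Differentiating-like against endoneurial-like cells by marker score gave 1 higher and 1 lower. With at least 500 genes per barcode, the beads library gave 0 lower in endothelial cell-like cells, 4 lower in phagocyte-like cells and 5 higher and 2 lower in pericyte or smooth muscle cell-like cells, no neutrophil-like cluster was found, and FACS Schwann cell-like cells had 1 higher. At resolution 0.4 endothelial cell-like cells had 0 and neutrophil-like cells 1 lower. Thinned to 500 UMIs, 5.82% of injured and 2.52% of uninjured cells held 2 or more induced members. Beyond these, the cause of each change was not tested.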
